A study of Rattus norvegicus with 14 samples.

Results

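The CREB and ATF transcription factors followed here in the rat dentate gyrus, after a spatial learning session, are the products of 6 genes: Creb1, Crem, Atf1, Atf2, Atf3 and Atf4. Members were all probe sets whose only gene symbol in the platform annotation is one of these names. They are 6 of the 10411 genes that have a probe set of their own here, and the array carried 10 such probe sets among 15866 that are not controls: 3 for Creb1, 3 for Crem and 1 for each of the other genes. A probe set is a group of short probes designed against one transcript, and its level is given on the log2 scale, on which a step of 1 is a doubling.

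CREB and ATF factors are basic leucine zipper proteins that pair with certain family members or with other zipper proteins, and can bind the cAMP response element (CRE). Neuronal activity raises cAMP and calcium, and kinases then phosphorylate CREB, the product of Creb1, which recruits coactivators and switches on activity-regulated genes. CREB is best known in the hippocampus for its part in long-term memory. Much of its regulation acts on the protein, through phosphorylation or translation, which an RNA array does not read.

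The rats were young male Long-Evans rats, 3 to 4 months old, and all had learned a standard water maze 2 to 3 weeks before. In a new pool at another site each rat had 8 trials. The 7 learning rats had spatial cues and a visible platform that kept its place, whereas for the 7 control rats the visible platform moved and the surroundings held no useful cues, so the control group also swam in a new pool. Every rat was given a 90 s swim without a platform 1 h after the last trial and was killed directly afterwards, and dentate gyrus RNA of each rat went on 1 array.

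Array medians lay between 5.09 and 5.12, and pairs of arrays correlated at 0.995 to 0.998 over all probe sets. The mean of 5 dentate granule cell markers was 9.33 ± 0.08 for control and 9.45 ± 0.07 for learning rats (SD, n = 7 each), a difference of 0.12. Of these markers Dsp differed by 0.44, Rasgrp1 by 0.13, Prox1 by 0.08, Ncald by -0.02 and Calb1 by -0.03. The part of the granule cell markers in the differences reported here was not tested. Markers of tissue next to the dentate gyrus also gave signal. The mean of 5 CA1 pyramidal cell markers ranged from 6.88 to 7.92 in control and from 7.39 to 7.79 in learning rats, and that of 9 meningeal markers from 5.49 to 8.18 and from 5.37 to 8.35. Of the CA1 markers Wfs1 differed by 0.95, with 0.43 on its other probe set, Mpped1 by 0.37 and Fibcd1 by 0.31. Lmo3 differed by 0.0025 and Itpka by -0.05. The mean of 3 choroid plexus markers ranged from 5.91 to 6.79 in control and from 5.68 to 5.98 in learning rats. In whole tissue, fewer cells of a type and less RNA per cell cannot be told apart.

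The CRE has the letters TGACGTCA, which read the same on both strands, and factors of this family also bind the shorter TGACG. Windows of 300 bases around RefSeq transcript starts (build GRCr8, 250 bases before the start and 50 from it on) were searched on both strands for TGACGTCA, and for TGACG outside any TGACGTCA. The promoter table held 7 windows for Creb1, Crem, Atf2 and Atf4. The 3 windows of Crem, the first of Creb1 and that of Atf2 are shown, because Crem and Atf2 had the largest differences below and Creb1 encodes CREB itself. Capitals mark the matches.

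Crem, start 1, chr17:58933816-58934115, plus strand: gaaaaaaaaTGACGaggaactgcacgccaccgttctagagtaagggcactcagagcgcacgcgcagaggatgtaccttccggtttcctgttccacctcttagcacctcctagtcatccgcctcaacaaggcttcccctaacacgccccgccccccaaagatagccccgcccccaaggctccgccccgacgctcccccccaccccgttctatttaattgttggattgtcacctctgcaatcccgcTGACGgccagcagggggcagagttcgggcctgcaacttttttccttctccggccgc

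Crem, start 2, chr17:58984547-58984846, plus strand: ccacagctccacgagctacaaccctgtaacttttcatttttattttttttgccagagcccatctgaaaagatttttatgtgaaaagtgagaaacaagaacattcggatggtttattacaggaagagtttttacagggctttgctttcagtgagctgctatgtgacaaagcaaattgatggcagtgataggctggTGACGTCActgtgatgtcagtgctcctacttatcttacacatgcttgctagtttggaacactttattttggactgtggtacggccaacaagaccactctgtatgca

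Crem, start 3, chr17:58985240-58985539, plus strand: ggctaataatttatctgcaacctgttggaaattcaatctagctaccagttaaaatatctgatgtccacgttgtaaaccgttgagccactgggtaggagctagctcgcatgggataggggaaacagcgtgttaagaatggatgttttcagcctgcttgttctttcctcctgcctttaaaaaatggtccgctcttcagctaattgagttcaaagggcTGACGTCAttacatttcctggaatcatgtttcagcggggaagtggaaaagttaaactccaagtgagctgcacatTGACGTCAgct

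Creb1, start 1, chr9:73397259-73397558, plus strand: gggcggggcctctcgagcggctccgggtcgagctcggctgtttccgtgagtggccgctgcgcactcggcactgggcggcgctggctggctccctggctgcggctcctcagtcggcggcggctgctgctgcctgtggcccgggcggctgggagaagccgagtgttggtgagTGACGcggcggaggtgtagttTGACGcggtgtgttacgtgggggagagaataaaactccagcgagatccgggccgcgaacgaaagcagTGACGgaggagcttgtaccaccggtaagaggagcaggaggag

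Atf2, start 1, chr3:79202696-79202995, minus strand: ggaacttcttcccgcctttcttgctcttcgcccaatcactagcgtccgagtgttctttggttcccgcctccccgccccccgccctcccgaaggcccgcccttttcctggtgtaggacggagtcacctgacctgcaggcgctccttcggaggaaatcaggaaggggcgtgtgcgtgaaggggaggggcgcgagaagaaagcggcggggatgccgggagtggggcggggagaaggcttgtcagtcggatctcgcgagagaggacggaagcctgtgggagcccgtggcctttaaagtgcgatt

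TGACGTCA stood in 2 of the 7 windows, both of Crem, against 1.83% of all 33469 windows. In the window of the second Crem start it covered bases -56 to -49, and in that of the last start bases -35 to -28 and again bases 40 to 47. The first Crem start had TGACG at -241 and at -6 instead. Crem is known to make, from a promoter inside the gene, the short repressor ICER, whose promoter carries CREs and is itself induced by CREB. The first Creb1 window held TGACG at -80, -59 and 9, and the Atf4 window held the same letters on the other strand at -120. TGACG on either strand, within TGACGTCA or alone, was in 5 of the 7 windows and in 21.2% of all windows. The second Creb1 window and the Atf2 window had neither.

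**Figure D1:**
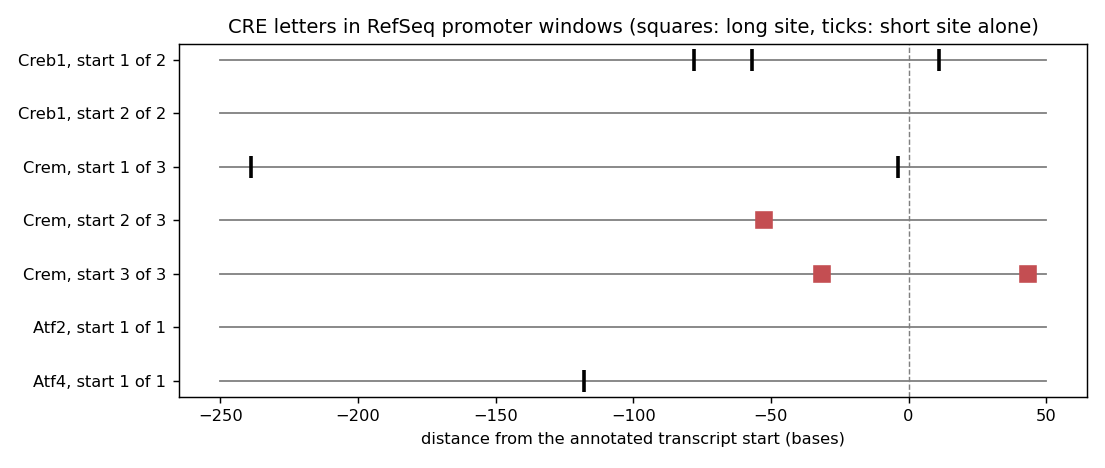
CRE letters in the promoter windows of Creb1, Crem, Atf2 and Atf4, by distance from the annotated transcript start in bases (x axis), with 1 line per window. Squares mark TGACGTCA, seen at 2 of the 3 Crem starts, and ticks mark TGACG alone on either strand.

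Of the 10 probe sets, 6 averaged 4 or more across all 14 arrays and were tested, and 4 did not. The tested probe sets cover 5 genes, and Atf3 was not among them. In limma's moderated test over 9387 probe sets no member passed a Benjamini-Hochberg adjusted p of 0.05, and neither did any other probe set (0% called, 1230 at an unadjusted p below 0.05). The 6 split into 3 higher and 3 lower after learning, and their median difference was 0.03. At an unadjusted p below 0.05 there were 2 members, Crem and Atf2, both higher in learning rats, against 6.43% of all tested probe sets in that direction, 6.67% in the other and 13.1% in either. For none of the 10 did the groups separate completely, as 0.405% of tested probe sets did. Levels of different probe sets are not comparable, since each has its own probes, so only arrays are compared below.

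**Figure D2:**
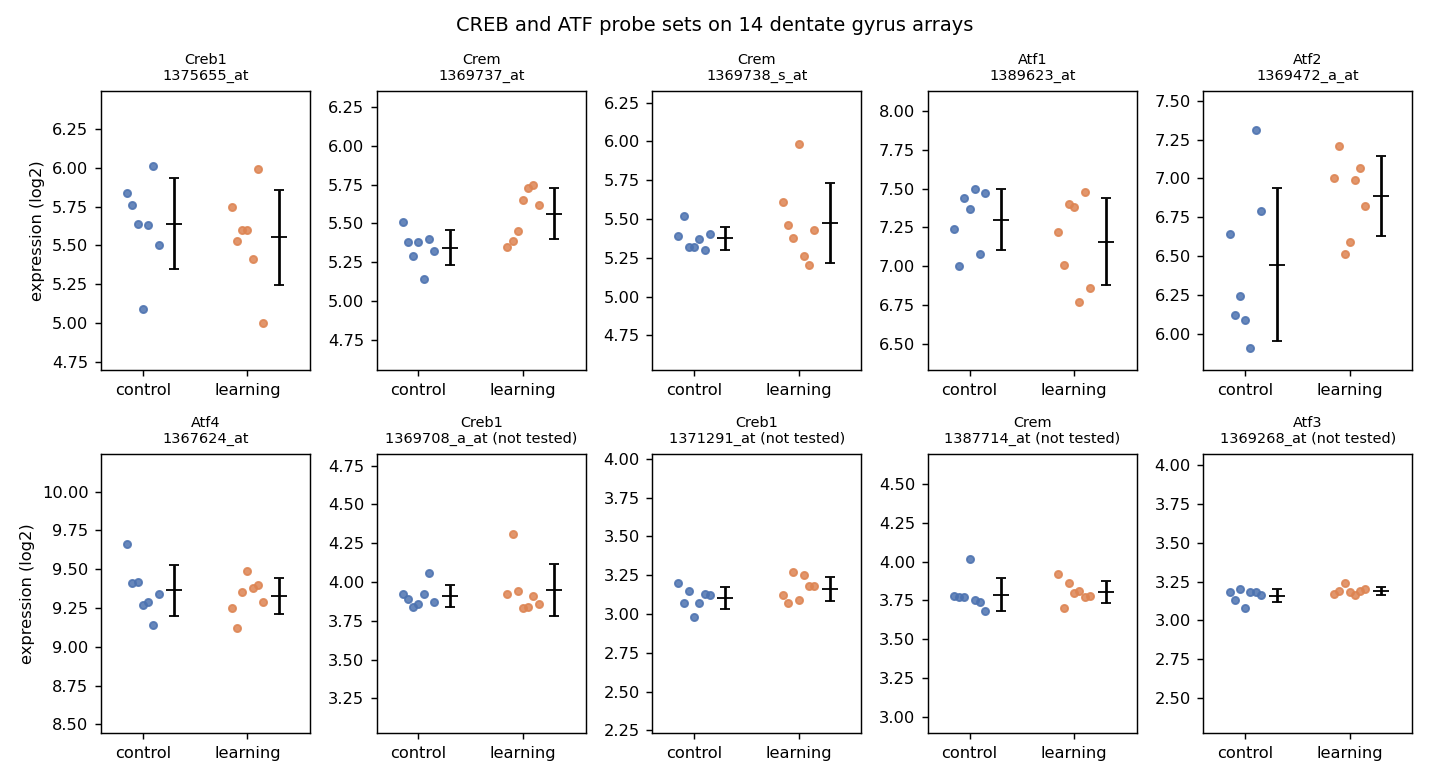
Expression on the log2 scale (y axis) of the 10 CREB and ATF probe sets in 7 control and 7 learning rats. Each point is 1 array, black bars give the mean and SD of a group, and every panel spans the same range of log2 units, so the wide spread of Atf2 in control rats can be read against the narrow spread of Atf3.

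Creb1 encodes CREB itself. Its brightest probe set, 1375655_at, had a lowest, median and highest value of 5.09, 5.64 and 6.01 in control rats and of 5.0, 5.60 and 5.99 in learning rats. The ranges of the groups nearly coincided. The means were 5.64 ± 0.29 for control and 5.55 ± 0.31 for learning rats (SD, n = 7 each), and the difference of -0.09 had a 95% confidence interval from -0.40 to 0.22 (limma, adjusted p = 0.816). It was 0.0047 without learning replicate 7, the lowest array, and 0.054 with the CA1 marker mean as covariate, so its sign was not stable. The other Creb1 probe sets were dim. Probe set 1369708_a_at, whose mean of 3.93 fell just short of the filter, lay between 3.84 and 4.06 in control rats and between 3.83 and 4.31 in learning rats. Probe set 1371291_at lay between 2.98 and 3.20 and between 3.07 and 3.27. Their differences were 0.04 and 0.06, against -0.09 on the bright one.

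Crem encodes activators and repressors of the same element. Probe set 1369737_at was at 5.51, 5.38, 5.29, 5.38, 5.14, 5.40 and 5.32 in control replicates 1 to 7. In learning replicates 1 to 7 it was at 5.35, 5.39, 5.45, 5.65, 5.73, 5.75 and 5.62. Learning replicates 4 to 7 lay above every control array, and learning replicates 1 to 3 lay within the control range. The means were 5.35 ± 0.11 for control and 5.56 ± 0.16 for learning rats (SD, n = 7 each). The difference was 0.22 ± 0.07 (SE), or 1.16-fold, with a 95% confidence interval from 0.06 to 0.38 (limma, unadjusted p = 0.0103, adjusted p = 0.251). The two-sided exact permutation test gave p = 0.0169. With each array left out in turn the difference stayed between 0.18 and 0.25, and its unadjusted p in limma was below 0.05 each time.

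The other Crem probe sets had smaller differences. Probe set 1369738_s_at, whose suffix marks probes shared by several transcripts, had a lowest, median and highest value of 5.30, 5.37 and 5.52 in control rats and of 5.20, 5.43 and 5.98 in learning rats. The learning values spread to both sides of the control range. Its difference of 0.10 ± 0.10 (SE; limma, adjusted p = 0.667) had a 95% confidence interval from -0.11 to 0.31, and was 0.015 without learning replicate 4, the highest array. Probe set 1387714_at, below the filter, lay between 3.68 and 4.02 in control and between 3.70 and 3.92 in learning rats, a difference of 0.02. Once each group's mean was taken off, the pair of tested Crem probe sets correlated at r = -0.18 (Spearman's rho -0.29) over 14 arrays. The annotation names the gene for these probe sets and not the transcript form, so ICER could not be read apart from the longer forms.

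Atf1 encodes a close relative of CREB that can pair with it. Its probe set, 1389623_at, had a lowest, median and highest value of 7.00, 7.37 and 7.50 in control rats and of 6.77, 7.22 and 7.48 in learning rats. Learning replicates 5 and 7, at 6.77 and 6.86, lay below every control array, and the other 5 lay inside the control range. The means were 7.30 ± 0.20 for control and 7.16 ± 0.28 for learning rats (SD, n = 7 each). The difference of -0.14 ± 0.12 (SE; limma, adjusted p = 0.622) had a 95% confidence interval from -0.40 to 0.12 and was -0.08 without learning replicate 5.

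Atf2 encodes a partner of Jun that is activated by the stress kinases JNK and p38. Its probe set, 1369472_a_at, showed the largest difference of the 10. Control replicates 1 to 7 were at 6.64, 6.12, 6.24, 6.09, 5.91, 7.31 and 6.79. Learning replicates 1 to 7 were at 7.00, 7.21, 6.51, 6.59, 6.99, 7.07 and 6.82. Of the 7 control arrays 4 lay below every learning array, but control replicate 6 was the highest of all 14. The means were 6.44 ± 0.49 for control and 6.88 ± 0.26 for learning rats (SD, n = 7 each). The difference of 0.44 ± 0.19 (SE), or 1.36-fold, had a 95% confidence interval from 0.04 to 0.85 (limma, unadjusted p = 0.0345, adjusted p = 0.349). Only 0.98% of tested probe sets differed by more in absolute value, yet by p in limma Atf2 ranked 926 of the 9387 tested. The two-sided exact permutation test gave p = 0.060. Leaving out each array gave 0.35 to 0.59, the highest without control replicate 6, and the unadjusted p in limma reached 0.05 or more in 8 of 14 such fits.

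**Figure D3:**
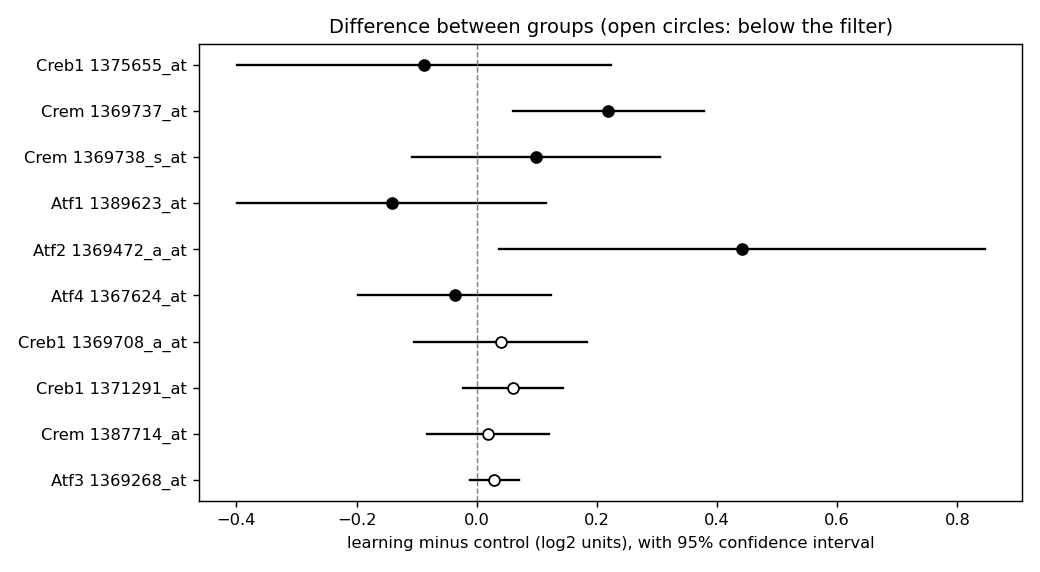
Learning minus control difference in log2 units (x axis) for the 10 probe sets, with 95% confidence intervals from limma. Filled circles are the tested probe sets, open circles those below the filter, fitted with no filter; the intervals of Atf2 and of Crem 1369737_at lie above 0, with no adjustment for the number of probe sets.

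Atf2 varied with the meningeal markers. In control rats it lay between 5.91 and 6.24 in the 3 arrays whose meningeal mean was 7.57 to 8.18, and between 6.12 and 7.31 in the 4 arrays at 5.49 to 6.51. In learning rats it lay between 6.51 and 7.00 in the 3 arrays at 7.10 to 8.35, and between 6.82 and 7.21 in the 4 arrays at 5.37 to 5.62. In each group the arrays with more meningeal signal included the lowest Atf2 values, and the ranges overlapped. At a cut chosen after seeing the data, the difference between groups was 0.62 ± 0.15 (SE; limma, adjusted p = 0.785) among the arrays with a meningeal mean of at least 7. Among the others the difference was 0.31 ± 0.22 (SE; limma, adjusted p = 0.694). With the meningeal mean as covariate it was 0.35 ± 0.13 (SE; limma, adjusted p = 0.332). The meningeal mean itself was 6.78 ± 1.16 for control and 6.41 ± 1.27 for learning rats (SD, n = 7 each), a difference of -0.38. With the CA1 marker mean as covariate the Atf2 difference was 0.66, and the CA1 mean was itself 0.32 higher in learning rats. The same fits gave Crem 1369737_at 0.21 and 0.22 on either side of 7, 0.20 with the meningeal and 0.29 with the CA1 covariate. This probe set also varied with the 1 mossy cell marker tested, a comparison made after the values were seen. The marker was at 8.92 to 9.01 in learning replicates 1 to 3 and at 9.23 to 9.43 in learning replicates 4 to 7. In control rats both were highest in replicate 1, the marker at 9.36. It averaged 0.15 higher in learning rats, and its part in the Crem difference was not tested. The choroid plexus marker mean differed by -0.55 between learning and control rats, of which transthyretin (Ttr) was at -1.78, Enpp2 at -0.04 and Kcne2 at 0.18, so the mean rests on Ttr. The part of the choroid plexus mean in these differences was not tested. Atf2 also varied with the granule cell marker mean, a comparison made after the values were seen. In each group the highest Atf2 value was on the array of highest granule mean, 9.44 in control and 9.54 in learning rats. The lowest Atf2 value was at the lowest mean in learning rats, 9.35, but in control rats at 9.33, above the lowest, 9.22. That mean was 0.12 higher in learning rats, and its part in the Atf2 difference was not tested.

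**Figure D4:**
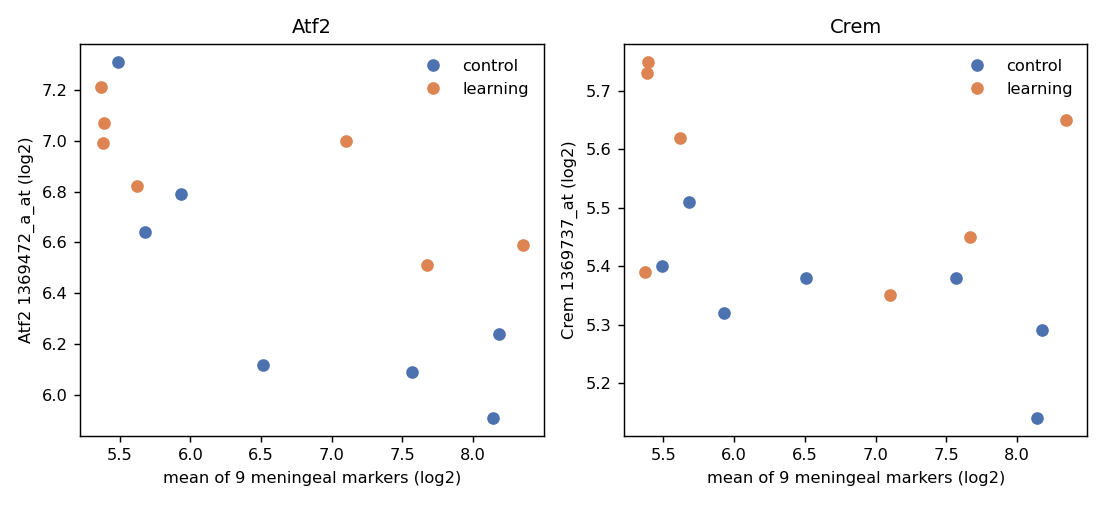
Level of Atf2 (left) and of Crem 1369737_at (right) on the log2 scale against the mean log2 level of 9 meningeal markers, 1 point per array, coloured by group. The highest Atf2 value, 7.31, belongs to the control array of lowest meningeal mean, 5.49, and the lowest, 5.91, to a control array at 8.14.

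Atf3 encodes a repressor that is induced by injury and strong stress. Its probe set, 1369268_at, was dim in both groups, between 3.08 and 3.20 in control rats and between 3.16 and 3.24 in learning rats. The difference was 0.03. Fitted with no filter, Atf3, the pair of dim Creb1 probe sets and Crem 1387714_at had adjusted p values from 0.647 to 0.921 in limma.

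Atf4 encodes the factor at the end of the integrated stress response, made when phosphorylated eIF2 favours its translation, and is known as a restraint on CREB-dependent memory. Its probe set, 1367624_at, had a lowest, median and highest value of 9.14, 9.34 and 9.66 in control rats and of 9.12, 9.35 and 9.49 in learning rats. The medians were all but equal. The means were 9.36 ± 0.16 for control and 9.33 ± 0.12 for learning rats (SD, n = 7 each), and the difference of -0.04 had a 95% confidence interval from -0.20 to 0.12 (limma, adjusted p = 0.850). Without control replicate 1, the highest array, it was 0.01.

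The genes whose levels went most like those of a member over the 14 arrays, after each group's mean was taken off, were different for each member. They are named for Pearson's r among 7794 or 7795 probe sets, and such top values are high by selection. Crem 1369737_at went with Oaz1, which encodes antizyme (r = 0.95, rho = 0.95, and r = 0.92 without the 2 arrays farthest from the Crem median), Kctd20 (r = 0.90) and Fdx2 (r = 0.90). Between learning and control rats Oaz1, Kctd20 and Fdx2 differed by 0.07, 0.20 and 0.09, against 0.22 for this Crem probe set. Atf2 went with Negr1, a neuronal adhesion molecule (r = 0.94, rho = 0.88, and r = 0.86 without the 2 farthest arrays), Cdk5r1, the activator of Cdk5 (r = 0.93), and Abi1, a regulator of actin (r = 0.89). Between learning and control rats Negr1, Cdk5r1 and Abi1 differed by -0.0015, -0.17 and -0.12, against 0.44 for Atf2. Atf4 went with Clmp (r = 0.89, rho = 0.83, and 0.83 without the 2 farthest), Ints14 (r = 0.88) and the mitochondrial import receptor Tomm20 (r = 0.87). Atf1 went with Bod1 (r = 0.83), Terf2ip (r = 0.83) and Hmgn2 (r = 0.80). Creb1 1375655_at went with Hdlbp (r = 0.82, but 0.51 without the 2 farthest arrays), Krt10 (r = 0.81) and Rcbtb1 (r = 0.81). Among the tested members, Crem 1369737_at and Atf4 had the highest correlation with each other (r = 0.54, rho = 0.58), and Atf1 and Atf2 the lowest (r = -0.32, rho = -0.27).

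Other factors that pair with the family or share its zipper did not pass the adjusted test. Among 18 measured genes, 9 were higher and 9 lower, the median difference was -0.0076, and 0 had an unadjusted p below 0.05 in limma, against 12.6% of all 6697 genes tested. The median of all genes was 0.0018. Jun, the AP-1 subunit that pairs with ATF2, differed by -0.22 ± 0.11 (SE), with -0.13 and -0.02 on its other probe sets. Crebzf, a zipper protein related to CREB, differed by 0.25 ± 0.13 (SE), and Atf6b, a membrane-bound factor of the endoplasmic reticulum stress response, by -0.18 ± 0.10 (SE). Fos, Fosb and Junb differed by -0.12, -0.03 and 0.10.

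Coactivators and inhibitors of these factors did not pass the adjusted test. Of 12 genes, 10 were higher and 2 lower, with a median of 0.03, where 50.6% of all genes were higher. An unadjusted p below 0.05 was reached by 1 gene, or 8.33%, against 12.6% of all genes. This was Atf7ip, a chromatin protein that binds ATF7, at 0.31 ± 0.12 (SE; limma, adjusted p = 0.289). Crebbp and Ep300, the acetyltransferases that phosphorylated CREB recruits, differed by 0.02 and 0.01, and the coactivator Crtc2 by 0.09. Sik3, a kinase that keeps Crtc proteins out of the nucleus, differed by -0.10 ± 0.05 (SE), and Trib3, a pseudokinase that binds ATF4, by 0.08 ± 0.06 (SE).

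Among 28 kinases and phosphatases that act on CREB, 14 were higher and 14 lower, and 4 had an unadjusted p below 0.05, a share of 14.3% against 12.6% of all genes. The catalytic subunits of protein phosphatase 1, the enzyme that takes the activating phosphate off CREB, did not go together. Ppp1cc averaged 11.6 ± 0.15 for control and 11.4 ± 0.06 for learning rats (SD, n = 7 each), which differ by -0.23 ± 0.06 (SE; limma, adjusted p = 0.210). Ppp1cb differed by -0.31 ± 0.11 (SE; limma, adjusted p = 0.254) and Ppp1ca by 0.14 ± 0.11 (SE). Camk2a, a calcium-activated kinase, differed by 0.59 ± 0.21 (SE; limma, adjusted p = 0.263), with -0.14 and 0.23 on its other probe sets. Ppp3cb, a calcineurin subunit, was the remaining gene, at 0.17 with -0.25 on its other probe set. Prkaca and Prkacb, the catalytic subunits of protein kinase A, differed by -0.04 and 0.14, with -0.02 on the other Prkacb probe set.

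The stress kinases upstream of ATF2 showed small differences. Of 8 genes 7 were higher and 1 lower, with a median of 0.04, where 50.6% of all genes were higher. An unadjusted p below 0.05 was reached by 1 gene, or 12.5%, against 12.6% of all genes. Map3k12, a neuronal kinase that feeds the JNK pathway, differed by 0.21 ± 0.08 (SE; limma, adjusted p = 0.273). The JNK gene Mapk8 differed by -0.08 and the scaffold Mapk8ip1 by 0.10, with -0.07 on its other probe set. Mapk14, which encodes p38 alpha, differed by 0.05.

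Genes known as CREB targets went both ways. Of 27 measured, Crem among them, 14 were higher and 13 lower, with a median of 0.05 and a median absolute difference of 0.12, against 0.08 for all genes. An unadjusted p below 0.05 in limma was reached by 5 genes, or 18.5%, against 12.6% of all genes, 4 of them higher in learning rats. They were Crem, Homer1, a scaffold of metabotropic glutamate receptors, at 0.25 ± 0.08 (SE) with -0.05 to 0.30 on its 4 other probe sets, the orphan receptor Nr4a3 at 0.23, Tiparp at 0.23, and Nrn1, which encodes neuritin, at -0.22 ± 0.08 (SE). The paralogue of Nr4a3, Nr4a2, differed by -0.37 ± 0.18 (SE). The target median was -0.011 with the CA1 marker mean as covariate and 0.0015 with no filter on low values. TGACGTCA was found in a promoter window of 8 of the 34 target genes with a window, or 23.5%, against 2% of all genes with one. The genes were listed as known CREB targets, so this share was not independent of their choice. Of the 8 genes, Crem, Scg2, Vgf and Cartpt were tested, and they differed by 0.22, -0.14, -0.12 and -0.04.

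Targets of ATF4 and genes of the integrated stress response numbered 38, of which 21 were higher and 17 lower, with a median of 0.01. An unadjusted p below 0.05 was reached by 3 of them, or 7.89%, against 12.6% of all genes, and these 3 were lower in learning rats. Eif2b1, a subunit of the exchange factor that phosphorylated eIF2 inhibits, averaged 5.53 ± 0.36 for control and 4.70 ± 0.64 for learning rats (SD, n = 7 each), which differ by -0.83 ± 0.25 (SE; limma, adjusted p = 0.233). The other subunits Eif2b2, Eif2b3, Eif2b4 and Eif2b5 differed by 0.08, 0.08, -0.02 and -0.04. Ddit4, an inhibitor of mTORC1, differed by -0.25 ± 0.08 (SE; limma, adjusted p = 0.233), and Cth, an enzyme of cysteine synthesis, by -0.13 ± 0.06 (SE). Known ATF4 targets had both signs: Asns, asparagine synthetase, differed by 0.32 ± 0.18 (SE), Ddit3 by 0.08, Trib3 by 0.08, Chac1 by 0.04 and the amino acid transporter Slc7a5 by -0.14. The list's median was -0.023 with the CA1 covariate and -0.020 without learning replicate 2.

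Genes tied to ATF3 and nerve injury were few. Of 11 on the array 7 passed the filter, and these 7 were lower in learning rats, with a median of -0.17, where 50.6% of all tested genes were higher. With no filter the list's median was -0.083. Only Stmn4, a stathmin of neurons, had an unadjusted p below 0.05, at -0.17 ± 0.05 (SE; limma, adjusted p = 0.236). Jun, shared with the list of partners, and Gap43, a growth cone protein, differed by -0.22 and -0.26 ± 0.14 (SE), and a second Gap43 probe set by 0.09. Hspb1, a small heat shock protein, differed by -0.19 ± 0.20 (SE).

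**Figure D5:**
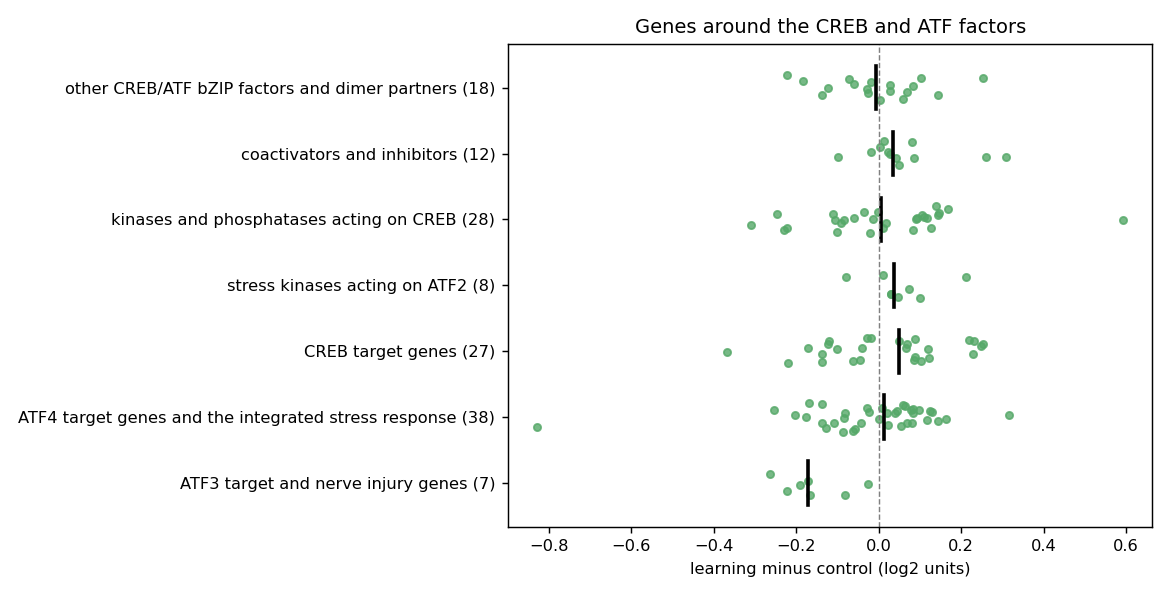
Learning minus control difference in log2 units (x axis) of the measured genes in 7 lists around the CREB and ATF factors, with the number of genes in brackets. Each point is 1 gene, represented by its brightest probe set, with points spread vertically for legibility, and black bars mark medians, which lie between -0.17 and 0.05.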

How the data were processed

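RNA of 14 rats, labelled with biotin, was hybridised to Affymetrix RAE230A arrays, 1 per rat, per the labels' protocols. By their titles these are biological replicates. Neither batch nor scan date is given. The authors deposited one log2 level for each probe set and array, and the submitters' processing notes name GCRMA, with no version. Their log2 scale was read from the values, which ran from -0.56 to 15.0. Depth has no meaning for arrays, and their number limits the precision.

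The 57 control probe sets were left out, and of the others 9387 averaged 4 or more across arrays and 6479 did not. Differences (learning minus control) come from limma 3.58.1 (lmFit, eBayes; R 4.3.3), with no covariate and Benjamini-Hochberg adjustment over all 9387. A gene was its brightest tested probe set. Of 12783 probe sets with a single symbol, 12754 had a gene ID in the RefSeq gene table. The exact permutation test used 3432 assignments. The code was tested on simulated data.

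Members and lists were chosen with earlier results of these data known. Named were every member probe set, the 3 genes of smallest p in each list, and the 3 genes of highest r for the brightest tested probe set of each member. Fos, Fosb, Junb, Crebbp, Ep300, Crtc2, Ppp1ca, Ppp3cb, Prkaca, Prkacb, Mapk14, Nr4a2, Nr4a3, Tiparp, Ttr, Enpp2, Kcne2, Dsp, Rasgrp1, Prox1, Ncald, Calb1, Wfs1, Mpped1, Fibcd1, Lmo3, Itpka, Scg2, Vgf, Cartpt, Asns, Ddit3, Chac1, Slc7a5, Hspb1 and the other Eif2b genes fall outside that rule and were chosen after their values were seen. Alternatives were other filters, scalings, priors and weights, a floor at 3, marker covariates, the replicate number as a block, the mean of a gene's probe sets and each array left out. The split at a meningeal mean of 7 was chosen after seeing the data. Beside the granule, CA1, meningeal and choroid plexus lists, marker lists covered CA3 pyramidal, mossy and glial cells, interneurons and endothelium; the mean differences of these latter lists lay between -0.17 (microglia) and 0.15 (mossy cells, 1 marker).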

Additional observations from a re-analysis of the deposited data

Results flagged for a closer look

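Of the 20 groups of 7 arrays looked at, 4 had an array standing far from the other 6 by Dixon's test at the 95% level, where chance gives about 1 in 20. All 4 were on probe sets below the filter. Creb1 1369708_a_at was at 4.31 in learning replicate 2, against 3.94 in the next array, and at 4.06 in control replicate 6, against 3.92. Crem 1387714_at was at 4.02 in control replicate 4, against 3.78. Atf3 was at 3.24 in learning replicate 3, against 3.20.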

How the results depend on the processing

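Of 150 values of the 6 tested member probe sets under the alternatives planned, 147 kept their direction and their side of the adjusted threshold, 0 passed it, and 3 turned. The other filters, the other prior, the floor at 3 and the block leave the difference itself unchanged, so these could not turn it. The permutation test also keeps the difference, and it gives no adjusted p. Creb1 1375655_at was at 0.054 with the CA1 marker mean as covariate and between -0.18 and 0.0047 with each array left out, and Atf4 between -0.073 and 0.013. The 455 values of the 19 other genes named by the rule all kept direction and side of the adjusted threshold. Here too, the filters, prior, floor and block could not turn a difference. The unadjusted p in limma fell below 0.05 with the block for Crebzf (0.0216) and Atf6b (0.0387), and for Atf6b with array weights (0.0393) and the CA1 covariate (0.0347), and with the block rose to 0.0708 for Cth. For Map3k12 it rose from 0.0142 in the main fit to 0.0817 with the CA1 covariate. Of 175 list medians, 171 moved by less than the SD between rats. The exceptions were the CREB targets, at 0.0015 with no filter and -0.011 with the CA1 covariate, and the ATF4 targets, at -0.023 with that covariate and between -0.020 and 0.024 with each array left out; the cause was not tested. The median of the ATF3 list kept its sign and lay between -0.23 and -0.083, the latter with no filter. The count of all probe sets past the adjusted threshold was 0, and between 0 and 1 with each array left out; it was 1 without control replicate 6, learning replicate 1 or learning replicate 4. With the replicate number as a block, 0 probe sets passed the adjusted threshold and 1330 an unadjusted p of 0.05. The labels give same-numbered rats no stated link beyond the number. Their deviations correlated at -0.28 to 0.26, and 4 of 7 control arrays correlated best with the learning array of their own number. Whether the number stands for anything the rats shared was not tested. Dim probe sets, with 4 of 10 members below the filter, limit what could be seen.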

Other observations

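Genes with a CRE in a RefSeq promoter window were described across the whole array, a choice made after the data were seen. Of 5641 tested genes with a window, 186 held TGACGTCA. After learning 95 of these were higher and 91 lower. Their median difference was 0.0020, against 0.0014 for all genes with a window. An unadjusted p below 0.05 in limma was reached by 32 of the 186, or 17.2%, against 12.6% of all genes with a window, and 0 passed the adjusted threshold. Of 1801 genes with TGACG alone on either strand, 884 were higher and 917 lower, and 12.8% had an unadjusted p below 0.05. Whether these shares differ was not tested.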
